A study of Mus musculus with 21 samples.

Results

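The genes examined here act in G2 and mitosis: 38 genes for cyclins and their kinase Cdk1, mitotic kinases, the kinetochore, the spindle, the cleavage furrow and the ubiquitin ligase that ends mitosis, chosen by name. Of the 38, 37 had a probe set that names a single gene, out of 18194 such genes on the array. Ccnb1, the main mitotic cyclin, had none and is given no value. All 37 passed the filter on dim probe sets, which left 11854 genes, and each of the 37 lay above the median of its array in at least 9 of the 20 sorted arrays. They were measured in mouse small intestine, in sorted TdTomato-positive cells that per the labels are Mist1-positive, on Affymetrix arrays. Flow cytometry gave a CD24hi and a CD24lo fraction. Each fraction was sampled with 2 arrays in each of 5 conditions: irradiation with 10 Gy, doxorubicin (a drug that damages DNA), NICD (an abbreviation left unexplained in the labels, commonly used for the active inner fragment of Notch), ablation of Lgr5-expressing cells with DT (commonly diphtheria toxin) and untreated mice. TdTomato and the CD24 gate are what all 20 sorted samples share. The labels used here give no age, no time between treatment and sorting, no driver for NICD or for the reporter, no arm given DT without ablation, and no word on whether the 2 replicates of a group were separate animals. P-values therefore measure only the spread between these samples, which may be technical.

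A cell enters mitosis when cyclins activate Cdk1. Aurora and polo kinases then build the spindle, checkpoint kinases hold anaphase until every kinetochore is attached, and the anaphase-promoting complex with Cdc20 ends the phase by destroying cyclins and other proteins. Most of these genes are transcribed in late S, G2 and M phase and are nearly silent in resting cells, and in the small intestine dividing cells lie in the crypts. The factors Foxm1 and Mybl2 (B-Myb) with the MuvB complex are known to drive many of these genes through a promoter element called the cell cycle genes homology region, often near a CCAAT box.

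The sorting label could be checked on the arrays. Bhlha15, the gene of Mist1, had log2 levels of 10.29 to 12.21 on the 10 CD24hi arrays and 7.83 to 9.41 on the 10 CD24lo arrays, and Cd24a had 13.83 to 14.73 in CD24hi and 12.95 to 13.55 in CD24lo cells. All 7 of 7 pan-epithelial markers were above the array median on every sorted array. Levels throughout are log2(signal + 16) of the deposited MAS5 signal, differences are on the same scale ± SE with n = 2 arrays a group, and adjusted p-values come from limma over all 11854 genes with a threshold of 0.05. Levels of different genes are read by different probes and are not set against each other. The array of CD24hi NICD replicate 2 differed from the rest in its controls, with an actin 3' to 5' ratio of 1.03, where the remaining 19 arrays had 1.30 to 1.58. Its levels of these genes were below those of replicate 1 for 19 of 37.

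The windows below show 250 bases upstream of the start of 9 of these genes, from RefSeq (GRCm38.p6, 5′ to 3′ on the strand of the gene). They are the named genes with an entry, the genes that passed the threshold in many comparisons, and Ckap2. The last was added after its values were seen, because it alone of the genes examined passed the threshold in CD24hi cells after doxorubicin. Capitals mark TTTGAA, the core of the cell cycle genes homology region, and CCAAT, each on either strand.
Mki67, chr7:135716380-135716629, minus strand: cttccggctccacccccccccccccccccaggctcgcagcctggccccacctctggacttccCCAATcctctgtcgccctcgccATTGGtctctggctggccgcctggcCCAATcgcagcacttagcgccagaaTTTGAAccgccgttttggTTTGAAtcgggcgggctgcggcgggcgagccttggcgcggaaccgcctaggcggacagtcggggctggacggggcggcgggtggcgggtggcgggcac
Top2a, chr11:99024190-99024439, minus strand: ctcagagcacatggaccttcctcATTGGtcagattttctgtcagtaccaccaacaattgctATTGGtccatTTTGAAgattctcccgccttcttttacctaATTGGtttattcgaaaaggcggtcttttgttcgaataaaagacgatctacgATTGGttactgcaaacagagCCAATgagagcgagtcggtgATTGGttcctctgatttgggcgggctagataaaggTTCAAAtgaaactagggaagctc
Cdk1, chr10:69352913-69353162, minus strand: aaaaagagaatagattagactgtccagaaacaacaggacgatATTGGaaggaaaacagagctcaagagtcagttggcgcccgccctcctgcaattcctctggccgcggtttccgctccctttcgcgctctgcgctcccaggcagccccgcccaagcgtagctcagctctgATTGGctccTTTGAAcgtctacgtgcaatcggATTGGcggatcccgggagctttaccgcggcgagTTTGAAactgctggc
Cdc20, chr4:118437344-118437593, minus strand: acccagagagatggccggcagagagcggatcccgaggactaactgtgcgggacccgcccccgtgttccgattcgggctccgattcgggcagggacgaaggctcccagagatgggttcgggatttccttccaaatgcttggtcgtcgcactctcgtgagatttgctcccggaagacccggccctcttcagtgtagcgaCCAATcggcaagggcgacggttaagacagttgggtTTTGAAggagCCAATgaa
Plk1, chr7:122159185-122159434, plus strand: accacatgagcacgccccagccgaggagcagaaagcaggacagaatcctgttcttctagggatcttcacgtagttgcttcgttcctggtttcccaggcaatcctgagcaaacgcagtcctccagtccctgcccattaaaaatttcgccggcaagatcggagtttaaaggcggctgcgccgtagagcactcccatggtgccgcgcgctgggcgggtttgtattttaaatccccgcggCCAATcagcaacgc
Hmmr, chr11:40733438-40733687, minus strand: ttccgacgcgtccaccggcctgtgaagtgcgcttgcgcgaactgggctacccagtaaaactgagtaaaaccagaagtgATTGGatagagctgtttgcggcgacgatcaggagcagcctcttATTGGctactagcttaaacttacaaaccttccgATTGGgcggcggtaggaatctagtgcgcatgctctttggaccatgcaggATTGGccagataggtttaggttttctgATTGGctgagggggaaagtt
Cdca3, chr6:124829926-124830175, plus strand: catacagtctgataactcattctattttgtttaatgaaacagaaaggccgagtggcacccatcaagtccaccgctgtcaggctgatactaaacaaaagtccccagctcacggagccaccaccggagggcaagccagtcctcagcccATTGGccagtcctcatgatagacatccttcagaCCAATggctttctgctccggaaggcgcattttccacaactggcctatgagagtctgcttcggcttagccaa
Aurka, chr2:172370571-172370820, minus strand: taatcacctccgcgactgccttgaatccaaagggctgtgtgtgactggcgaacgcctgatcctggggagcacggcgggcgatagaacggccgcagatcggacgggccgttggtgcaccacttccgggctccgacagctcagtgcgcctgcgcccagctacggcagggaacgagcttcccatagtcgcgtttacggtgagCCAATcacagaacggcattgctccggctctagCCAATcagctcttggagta
Ckap2, chr8:22185820-22186069, minus strand: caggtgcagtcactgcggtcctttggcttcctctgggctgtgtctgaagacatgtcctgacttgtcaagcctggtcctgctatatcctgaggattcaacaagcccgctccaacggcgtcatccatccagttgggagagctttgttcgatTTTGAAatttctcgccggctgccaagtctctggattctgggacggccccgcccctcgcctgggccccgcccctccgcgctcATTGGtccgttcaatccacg

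Windows were found for 31 of the 37 genes. Aurkb, Bora, Ccna2, Cdc25c, Kif20a and Tpx2 are named only. CCAAT stood in a window of 25 of the 31 genes (80.6%), against 37.5% of 27025 genes with windows of the same length. A gene with more than 1 window, such as Ect2 and Prc1, was counted where any of them matched. TTTGAA stood in 11 (35.5%, against 18.3% of all genes), and both in 1 window in 10 (32.3%, against 6.5%). At least 2 CCAAT boxes stood in 1 window for 17 genes (54.8%, against 11.5%). There were 6 each in Top2a and Ube2c, 5 in Hmmr and 3 each in Mki67, Cdk1, Ccnb2, Cdca8 and Stil and in 1 window of Ect2. The E2F-like letters TTCCCGC stood in a window of 0 of 31 genes (4.4% of all genes). All were searched on both strands, and matches of different motifs could share a base. A match describes the letters only. The window of Plk1, which passed in none of the comparisons with untreated cells, holds 1 CCAAT and no TTTGAA, while the windows of Hmmr, Cdca3 and Aurka, which fell after irradiation in both fractions, hold no TTTGAA either. The window of Ube2c, which passed in none of those comparisons either, holds both motifs. No relation of motif to response was tested over the 31 genes.

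Across the 20 arrays, the median log2 level of the 37 genes ran from 8.35 on replicate 1 of irradiated CD24hi cells to 10.52 on replicate 2 of untreated CD24lo cells, while the median of all genes stayed between 9.22 and 9.45. In CD24hi cells the 2 arrays of a group had medians of 8.35 and 9.04 after irradiation, 10.28 and 10.37 after doxorubicin, 9.28 and 9.19 with NICD, 10.04 and 10.37 after Lgr5 ablation, and 10.04 and 9.78 in untreated mice. In CD24lo cells they were 9.29 and 9.06 after irradiation, 9.41 and 9.37 after doxorubicin, 10.03 and 9.88 with NICD, 10.28 and 9.95 after Lgr5 ablation, and 10.18 and 10.52 in untreated mice. Both fractions were low after irradiation. After doxorubicin the CD24lo fraction was low and the CD24hi fraction was not. With NICD the CD24hi fraction was low as well, at 9.28 and 9.19. Irradiated CD24hi cells had the lowest group mean for 33 of the 37 genes, against 12.3% of all genes. The highest group mean was that of CD24hi cells after doxorubicin for 17 and of untreated CD24lo cells for 11. For the highest group the share of all genes was not computed.

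**Figure D1:**
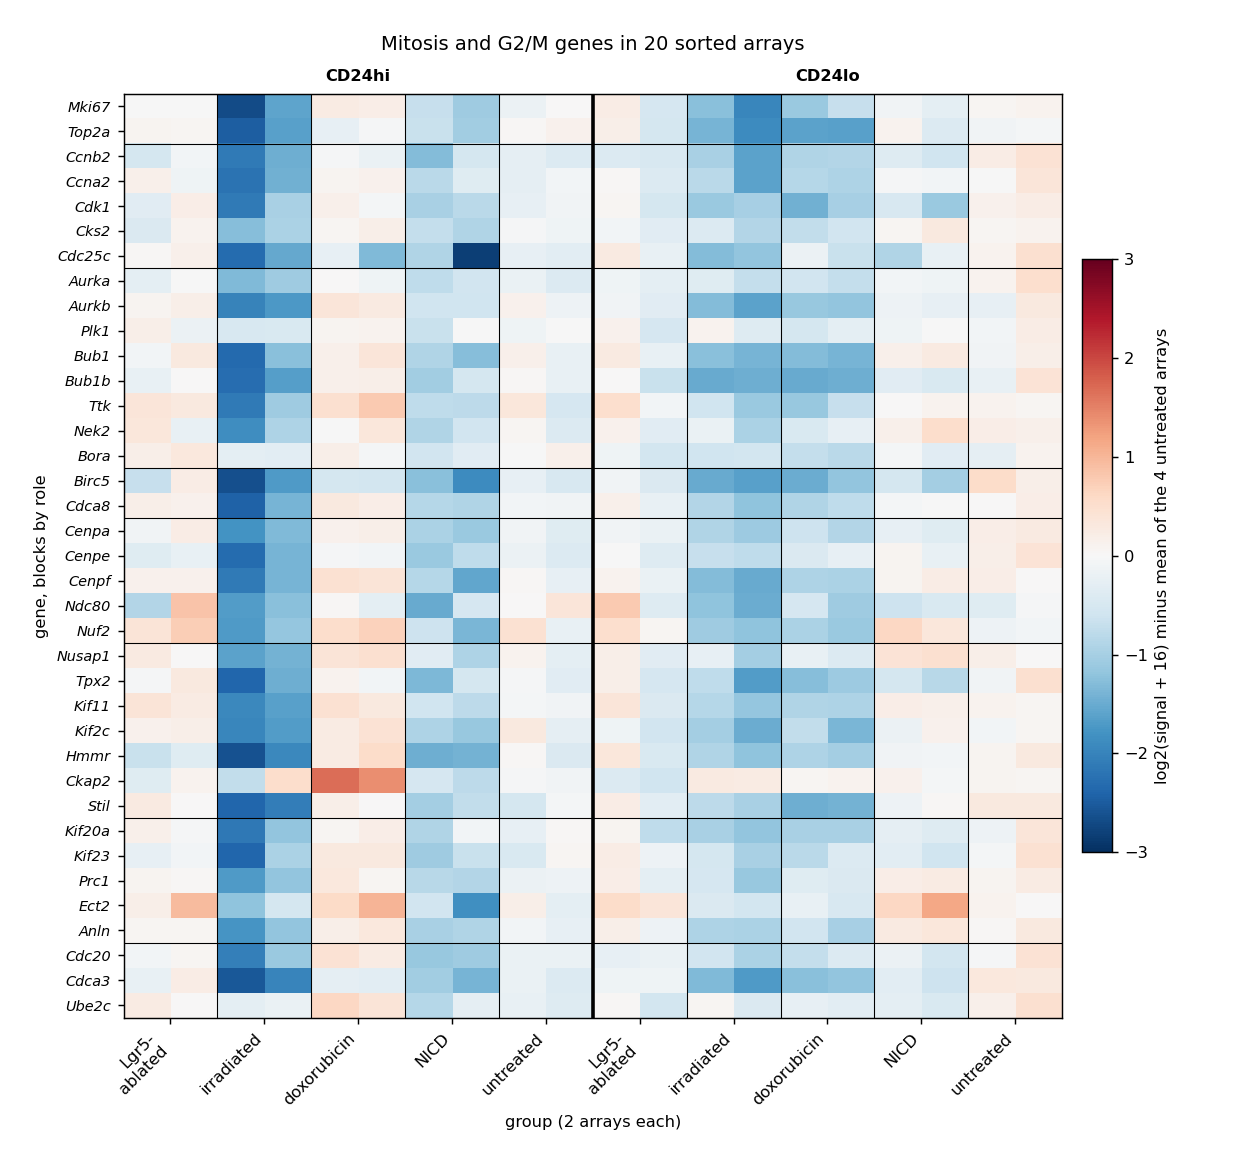
Each of 37 mitosis and G2/M genes (rows, in blocks by role) on each of 20 sorted arrays (columns, CD24hi left and CD24lo right, 2 arrays a condition), as log2(signal + 16) minus the mean of the gene's 4 untreated arrays, with red higher and blue lower. Blue fills the irradiated columns of both fractions and, for doxorubicin, the columns of CD24lo only. The CD24hi NICD columns are low as well, with a median group mean of 9.233 against 9.463 for CD24lo after doxorubicin. The rows of Plk1, Bora, Ube2c and Ckap2 are pale after irradiation.

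**Figure D2:**
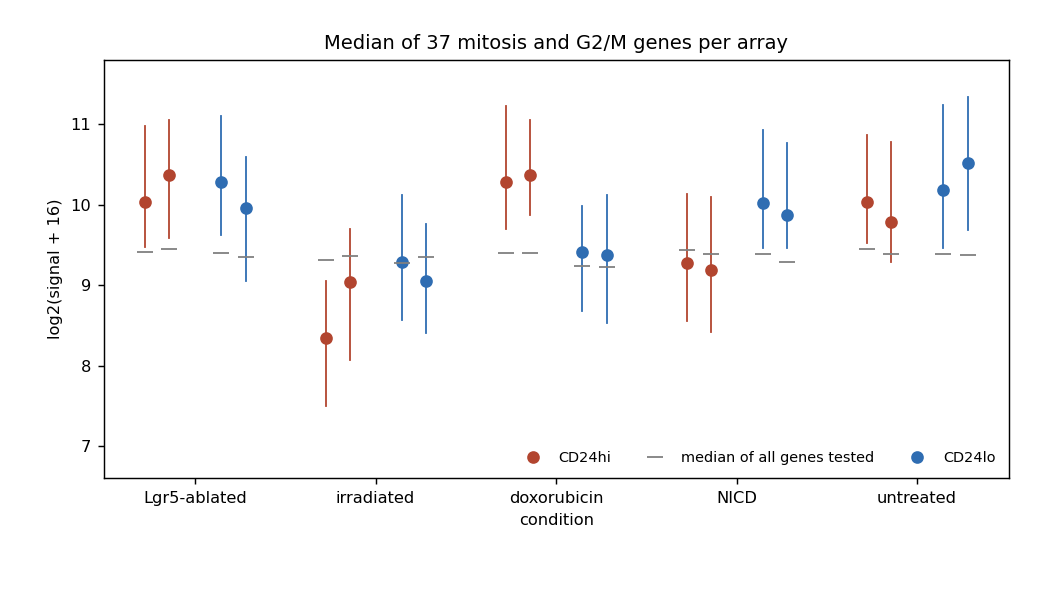
Median log2(signal + 16) of the 37 genes on each sorted array (points, with a line between the quartiles of the 37 genes), by condition, CD24hi in red left of CD24lo in blue, with grey marks for the median of all genes tested. The lowest points are the irradiated CD24hi arrays at 8.35 and 9.04, and the CD24lo points after doxorubicin lie at 9.41 and 9.37, below the CD24hi points at 10.28 and 10.37.

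After irradiation most of these genes were lower in CD24hi cells. In that fraction 30 of 37 fell and 0 rose, against 3.33% of all genes lower, with a median log2 difference of -1.56, a fold of 2.94. All irradiated arrays lay below all untreated arrays for 35 of the 37, against 24.8% of all genes. By role, 4 of 5 cyclins and Cdk1 partners, 6 of 8 kinases and their activators, 4 of 5 kinetochore genes, both passenger complex partners, 6 of 7 spindle genes, 4 of 5 cytokinesis genes and 2 of 3 genes of the ligase group fell, as did Mki67 and Top2a.

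Mki67, whose protein coats mitotic chromosomes and serves as the usual marker of dividing cells, had log2 levels of 9.06 and 10.17 on the irradiated CD24hi arrays, against 11.57 and 11.78 on the untreated CD24hi arrays. Top2a, the topoisomerase that untangles replicated DNA, had 9.05 and 9.87 after irradiation, against 11.54 and 11.64 in untreated cells. Neither gene's groups overlapped, and the differences were -2.06 ± 0.31 (adjusted p = 0.000761) and -2.13 ± 0.27 (adjusted p = 0.000175). Cdk1, the kinase that drives entry into mitosis, had log2 levels of 8.99 and 10.14 in irradiated against 10.87 and 11.01 in untreated CD24hi cells, and fell by 1.37 ± 0.31 (adjusted p = 0.0154). Cdc20, the activator of the anaphase-promoting complex, had 8.92 and 9.87 against 10.77 and 10.78 and fell by 1.38 ± 0.26 (adjusted p = 0.00373). For all 4 of these genes replicate 1 of the irradiated group was the lower array, as it was for 36 of the 37.

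The other large log2 differences in irradiated CD24hi cells were those of Hmmr, a spindle microtubule protein, at -2.08 ± 0.27 (adjusted p = 0.000194), Cdca3, a factor that promotes mitotic entry, at -1.96 ± 0.21 (4.91e-05), Stil, needed for centriole duplication, at -1.93 ± 0.24 (0.000158), and the checkpoint kinase gene Bub1b at -1.87 ± 0.28 (0.000746). Aurkb, the kinase of the chromosomal passenger complex, fell by 1.85 ± 0.21, and its partners Birc5 and Cdca8 by 1.81 ± 0.32 and 1.82 ± 0.24. The 7 genes that did not pass were Bora, Cdc25c, Ckap2, Ect2, Ndc80, Plk1 and Ube2c. Ndc80, which couples kinetochores to microtubules, differed by -1.66 ± 0.50 (adjusted p = 0.0741) and Cdc25c, the phosphatase that activates Cdk1, by -1.63 ± 0.50 (adjusted p = 0.0821), so their sizes were like those that passed but their errors wider. Without replicate 1 of irradiated CD24hi cells, 16 genes fell. Each of these 16 also passed without any other array: Mki67, Top2a, Aurkb, Ccna2, Bub1, Bub1b, Kif11, Kif2c, Cenpa, Cenpe, Cenpf, Cdca3, Cdca8, Hmmr, Anln and Stil.

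In irradiated CD24lo cells 25 of 37 genes fell and 0 rose, against 2.45% of all genes lower, with a median log2 difference of -1.16 (a fold of 2.23). All irradiated arrays lay below all untreated arrays for 35 of 37 (26.9% of all genes). Mki67 had log2 levels of 10.51 and 9.81 in irradiated against 11.81 and 11.87 in untreated CD24lo cells, and Top2a 10.12 and 9.61 against 11.40 and 11.45, with no overlap. They fell by 1.68 ± 0.31 (adjusted p = 0.00584) and 1.56 ± 0.27 (adjusted p = 0.00401). Cdk1 had 9.99 and 10.12 in irradiated against 11.23 and 11.33 in untreated cells and fell by 1.23 ± 0.31 (adjusted p = 0.0379). Cdc20 had 10.40 and 10.03 against 10.95 and 11.42, again without overlap, and fell by 0.97 ± 0.26 (adjusted p = 0.0424).

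The largest fall in irradiated CD24lo cells was that of Birc5, the survivin gene of the passenger complex, at -1.93 ± 0.32 (adjusted p = 0.00285). Cdca3 followed at -1.82 ± 0.21 (0.000205), then Mki67 at -1.68 ± 0.31 (0.00584), the cyclin gene Ccnb2 at -1.62 ± 0.27 (0.00288) and Bub1b at -1.58 ± 0.28 (0.00421). Among those that did not pass, Cdc25c had a log2 difference of -1.53 ± 0.50 (adjusted p = 0.094), Ndc80 of -1.16 ± 0.50 (adjusted p = 0.194) and Kif23, a motor of the central spindle, of -0.94 ± 0.35 (adjusted p = 0.132). The count past the threshold changed with the array left out. The median log2 difference was -0.99 without irradiated replicate 2 and -1.291 without irradiated replicate 1. It was -1.234 without untreated replicate 1 and -1.042 without untreated replicate 2. Birc5, Aurkb, Ccnb2, Cenpa, Cenpf and Cdca3 passed whichever array was left out. In these bulk samples, fewer dividing cells and less of these RNAs per cell cannot be told apart. Markers of other cell types moved with these groups, stem cell markers among them. All 9 of 9 were measured, 4 fell in irradiated CD24hi and 5 in irradiated CD24lo cells, and their summed signal was 19450 to 20540 against 42670 to 46550 in untreated CD24hi cells, and 7952 to 9576 against 19000 to 21300 in untreated CD24lo cells. In CD24hi cells 1 of 4 B and plasma cell markers tested fell (485.8 to 824 against 2696 to 3241) and 2 of 7 goblet cell markers rose (107100 to 121900 against 71400 to 93600). Their part in the result was not tested. None of 7 pan-epithelial markers passed in limma in either fraction after irradiation, with an unadjusted p under 0.05 for 0 in CD24hi and 0 in CD24lo cells.

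All 25 genes that passed in irradiated CD24lo cells (100%) were among the 30 that passed in CD24hi cells. Of all 37 genes, 81.1% passed in CD24hi cells. The 25 were 83.3% of the 30, where 67.6% of all 37 passed in CD24lo cells. These comparisons share no arrays, but they share the estimate of each gene's spread, so the lists are not independent. Cks2, Kif23, Nek2, Nusap1 and Ttk passed in CD24hi only. The fall itself was not shown to differ: in the test of the CD24hi minus the CD24lo effect, limma passed 0 of 37 genes (0.00844% of all genes), 2 had an unadjusted p under 0.05, and the median was -0.33, with 33 of 37 negative. Of 29 further probe sets for 20 of the genes, 16 fell in irradiated CD24hi cells with a median of -1.29, and 9 fell in irradiated CD24lo cells with a median of -0.93.

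Plk1, Bora, Ube2c and Ckap2 had the 4 smallest differences of the 37 genes after irradiation in both fractions, and none of them passed. Plk1, the polo kinase of mitotic entry and spindle assembly, had log2 levels of 10.88 and 10.91 in irradiated against 11.23 and 11.34 in untreated CD24hi cells, and 11.45 and 10.97 in irradiated against 11.27 and 11.57 in untreated CD24lo cells. Its differences were -0.40 ± 0.24 (adjusted p = 0.456) and -0.21 ± 0.24 (adjusted p = 0.667), and its groups overlapped in CD24lo. Bora, the activator of Plk1, differed by -0.39 ± 0.20 in CD24hi and -0.49 ± 0.20 in CD24lo cells (adjusted p = 0.374 and 0.176). Ube2c, the ubiquitin-conjugating enzyme of the anaphase-promoting complex, differed by 0.06 ± 0.23 in CD24hi and -0.49 ± 0.23 in CD24lo cells. Ckap2, a spindle microtubule protein, differed by -0.04 ± 0.31 and 0.20 ± 0.31. These 4 were singled out after their values were seen. A p above the threshold does not show that they were unchanged.

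**Figure D3:**
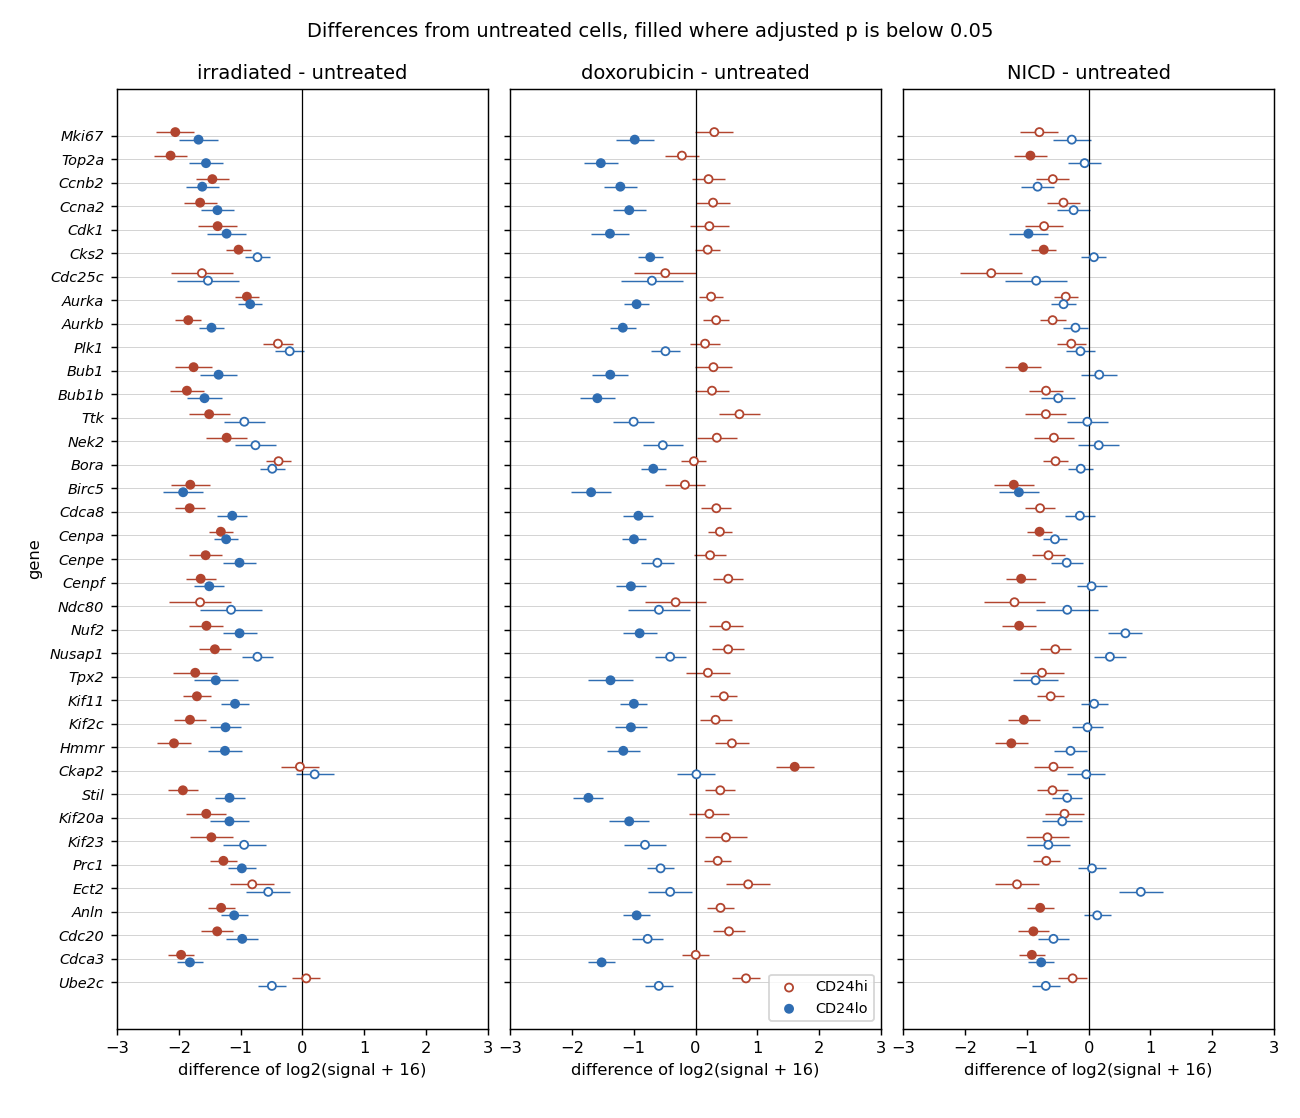
Difference of log2(signal + 16) from untreated cells of the same fraction for each of 37 genes (points, with SE as bars, n = 2 arrays a group), CD24hi in red and CD24lo in blue, filled where the adjusted p was below 0.05. After irradiation most points of both colours lie between -1 and -2. After doxorubicin 32 of the 37 CD24hi points lie above 0, with a median of 0.325 and Ckap2 at 1.60. With NICD the filled points are mostly CD24hi.

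After doxorubicin most of these genes were lower in CD24lo cells, and none was in CD24hi cells. In CD24lo cells 24 of 37 fell and 0 rose, against 9.27% of all genes lower, with a median log2 difference of -0.98 (a fold of 1.98), and all arrays after doxorubicin lay below all untreated arrays for 36 of 37 (35.1% of all genes). In CD24hi cells 0 fell and 1 rose, against 0.396% of all genes lower and 0.801% higher, and the median log2 difference was 0.32, with 7 genes at an unadjusted p under 0.05 in limma. There 27 genes had both arrays after doxorubicin above both untreated arrays (25.4% of all genes) and 2 had both below (25.9%). Of 29 further probe sets for 20 of the genes, 8 fell in CD24lo cells after doxorubicin, with a median of -0.77. In CD24lo cells 25 of them had the sign of the main probe set. In CD24hi cells 0 of the 29 passed in limma, with a median of 0.31.

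Top2a had log2 levels of 9.90 and 9.89 in CD24lo cells after doxorubicin, against 11.40 and 11.45 in untreated CD24lo cells, and fell by 1.53 ± 0.27 (adjusted p = 0.00276). In CD24hi cells it had 11.26 and 11.48 after doxorubicin, against 11.54 and 11.64, a difference of -0.22 ± 0.27 (adjusted p = 0.824). The arrays after doxorubicin were thus well below the untreated ones in CD24lo and just below them in CD24hi cells. Mki67 had 10.65 and 11.06 in CD24lo cells after doxorubicin, against 11.81 and 11.87 in untreated CD24lo cells, and fell by 0.98 ± 0.31 (adjusted p = 0.0427). In CD24hi cells Mki67 had 12.01 and 11.94 after doxorubicin, against 11.57 and 11.78, a difference of 0.30 ± 0.31 (adjusted p = 0.777). It was the highest of the 10 groups for this gene.

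Cdk1 had log2 levels of 9.68 and 10.12 in CD24lo cells after doxorubicin, against 11.23 and 11.33 in untreated CD24lo cells, and fell by 1.38 ± 0.31 (adjusted p = 0.0094). In CD24hi cells it had 11.27 and 11.05 after doxorubicin, against 10.87 and 11.01, a difference of 0.22 ± 0.31 (adjusted p = 0.853). The groups did not overlap in either fraction, but they parted in opposite directions. Cdc20 had 10.26 and 10.57 after doxorubicin against 10.95 and 11.42 in untreated CD24lo cells, a difference of -0.77 ± 0.26 (adjusted p = 0.0514), and 11.41 and 11.23 against 10.77 and 10.78 in CD24hi cells, a difference of 0.54 ± 0.26 (adjusted p = 0.425). Plk1 had 10.82 and 11.05 after doxorubicin against 11.27 and 11.57 in untreated CD24lo cells (difference -0.49 ± 0.24, adjusted p = 0.175), and 11.42 and 11.46 against 11.23 and 11.34 in CD24hi cells (difference 0.15 ± 0.24, adjusted p = 0.87). Neither gene passed in either fraction.

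In CD24lo cells after doxorubicin the largest falls were those of Stil at -1.73 ± 0.24 (adjusted p = 0.000648), Birc5 at -1.69 ± 0.32 (0.00365), Bub1b at -1.59 ± 0.28 (0.00262), Top2a at -1.53 ± 0.27 (0.00276) and Cdca3 at -1.52 ± 0.21 (0.000685). By role, 4 of 5 cyclins and Cdk1 partners, 5 of 8 kinases and their activators, 3 of 5 kinetochore genes, both passenger complex partners, 5 of 7 spindle genes, 2 of 5 cytokinesis genes and 1 of 3 ligase genes fell. Bora fell by 0.68 ± 0.20 (adjusted p = 0.0325), a gene that did not pass after irradiation. Ttk, a spindle checkpoint kinase, differed by -1.001 ± 0.33 (adjusted p = 0.0531) and Kif23 by -0.82 ± 0.35 (adjusted p = 0.118). Without untreated replicate 2 of CD24lo cells 8 genes passed, without doxorubicin replicate 1 it was 11 and without doxorubicin replicate 2 it was 7. Top2a, Birc5, Aurkb, Bub1b, Cdca3 and Stil passed in every such fit. Markers of 5 cell types changed in this group, and their part in the result was not tested. Of 9 stem cell markers 6 fell, with a summed signal of 6191 to 6486 after doxorubicin against 19000 to 21300 in untreated CD24lo cells. Of 9 T cell markers 7 had a probe set and 6 were tested, of which 5 rose, with a summed signal of 2801 to 2803 against 291.2 to 535.1. Of 6 enterocyte markers tested 2 rose (86300 to 97960 against 42380 to 49640), of 5 Paneth cell markers 2 fell (41660 to 47010 against 62410 to 75470), and of 6 myeloid markers 2 fell and 1 rose (2833 to 4035 against 6381 to 7333). No marker is listed at 0 on any array.

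The 1 gene that rose in CD24hi cells after doxorubicin was Ckap2. It had log2 levels of 9.92 and 9.63 after doxorubicin, against 8.21 and 8.12 in untreated CD24hi cells, and rose by 1.60 ± 0.31 (adjusted p = 0.0136). In CD24lo cells it had 8.30 and 8.35 after doxorubicin, against 8.33 and 8.28, so that only the CD24hi arrays were high. The rise was 1.46 to 1.75 with any 1 array left out, but the adjusted p was then 0.0721 to 0.203, above the threshold in all 4 fits. Ect2, which is needed for cytokinesis, differed by 0.85 ± 0.35 (adjusted p = 0.34), Ube2c by 0.82 ± 0.23 (adjusted p = 0.112) and Ttk by 0.71 ± 0.33 (adjusted p = 0.42) in CD24hi cells. In the same cells 1 of 9 stem cell markers fell (summed signal 30500 to 31200, against 42670 to 46550 in untreated CD24hi cells), and 3 of 6 enterocyte markers tested rose (36560 to 37500, against 10920 to 15690), as did 2 of 7 goblet cell markers (101900 to 118300, against 71400 to 93600). Of the T cell markers 0 passed in limma, with 4 at an unadjusted p under 0.05, at a summed signal of 1345 to 1655 against 213.6 to 626.2. Their part in the result was not tested.

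The CD24hi cells of the 2 DNA-damaging treatments differed in nearly all of these genes. Set directly against irradiated CD24hi cells, CD24hi cells after doxorubicin had 32 of 37 genes higher and 0 lower, against 3.71% of all genes higher, with a median log2 difference of 1.91 (a fold of 3.77). For all 37 genes both arrays after doxorubicin lay above both irradiated arrays (29.1% of all genes). The largest differences were those of Hmmr at 2.67 ± 0.27 (adjusted p = 4.25e-05), Mki67 at 2.36 ± 0.31 (0.000264), Stil at 2.33 ± 0.24 (4.25e-05), Ttk at 2.22 ± 0.33 (0.000741), and Aurkb and Cenpf, a kinetochore protein, at 2.18 each. Top2a was higher by 1.91 ± 0.27, Cdk1 by 1.60 ± 0.31 and Cdc20 by 1.92 ± 0.26. Plk1, at 0.55 ± 0.24 (adjusted p = 0.227), Ndc80, Cdc25c, Ube2c and Bora did not pass. With 1 array left out 22 to 32 genes passed, and 22 of them in every such fit. Of 9 stem cell markers 3 were higher after doxorubicin than after irradiation in CD24hi cells (summed signal 30500 to 31200 against 19450 to 20540), as was 1 of 6 enterocyte markers (36560 to 37500 against 13910 to 22770), while 1 of 6 myeloid markers was lower (4460 to 5196 against 8456 to 9635), and their part was not tested. Between the 2 treatments in CD24lo cells limma passed 0 of 37 (3.27% of all genes), 2 had an unadjusted p under 0.05, and the median log2 difference was 0.14.

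Within the doxorubicin condition, CD24hi cells had 29 of 37 genes higher than CD24lo cells and 0 lower, against 17.4% of all genes higher, with a median log2 difference of 1.03 (a fold of 2.04). For 36 of 37 genes both CD24hi arrays lay above both CD24lo arrays (43.4% of all genes). Bub1b was higher by 1.65 ± 0.28 (adjusted p = 0.000508), Nuf2, the partner of Ndc80, by 1.64 ± 0.28 (0.0005), Bub1 by 1.60 ± 0.29 (0.000959) and Top2a by 1.48 ± 0.27 (0.000952). Kif23, Birc5, Ndc80, Prc1, Nek2, Plk1, Cdc25c and Cenpe did not pass. The count was 18 without replicate 1 of either group and 19 without CD24hi replicate 2. Cell type markers differed between these groups as well. All 9 stem cell markers were higher in CD24hi cells (summed signal 30500 to 31200, against 6191 to 6486 in CD24lo cells), as were 3 of 5 Paneth cell markers tested (61270 to 71730 against 41660 to 47010) and 4 of 5 tuft cell markers (1251 to 1352 against 294.6 to 325). Of 6 enterocyte markers 5 were lower (36560 to 37500 against 86300 to 97960), and the T cell sum was 1345 to 1655 against 2801 to 2803, with 0 of 6 markers past the threshold in limma and 1 at an unadjusted p under 0.05. Their part in the result was not tested.

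The difference between the doxorubicin effects in CD24hi and CD24lo cells was positive for all 37 genes, with a median of 1.36, and 33 had an unadjusted p under 0.05. After adjustment 1 of 37 passed, against 0.0337% of all genes. This was Stil, with log2 levels of 8.97 and 8.80 after doxorubicin against 8.26 and 8.71 in untreated CD24hi cells, and 7.32 and 7.37 after doxorubicin against 9.07 and 9.09 in untreated CD24lo cells. Its CD24hi arrays were a little higher and its CD24lo arrays far lower after doxorubicin, and the effects differed by 2.13 ± 0.34 (adjusted p = 0.0405). Stil had an adjusted p of 0.0489 to 0.267 with 1 array left out, and it passed only without untreated CD24hi replicate 2.

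**Figure D4:**
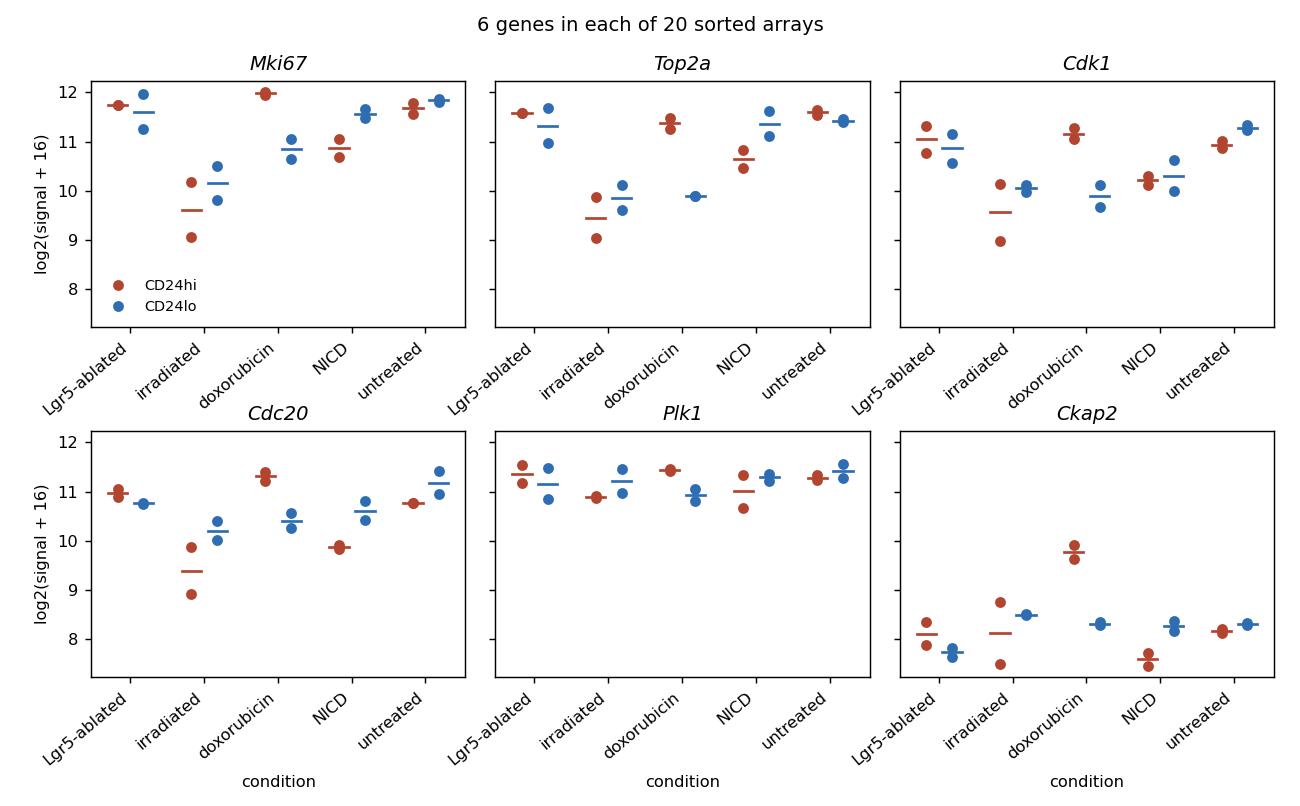
Log2(signal + 16) of Mki67, Top2a, Cdk1, Cdc20, Plk1 and Ckap2 on each of 20 sorted arrays (points, with a bar at the mean of the 2 arrays of a group), by condition, CD24hi in red left of CD24lo in blue. Mki67, Top2a, Cdk1 and Cdc20 are low in both fractions after irradiation and in CD24lo after doxorubicin. With NICD these genes lie below untreated cells in CD24hi. Plk1 lies between 10.68 and 11.57 throughout, and Ckap2 is highest in CD24hi cells after doxorubicin at 9.92 and 9.63.

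With NICD some of these genes were lower in CD24hi cells. Of 37, 12 fell and 0 rose, against 1.86% of all genes lower, with a median log2 difference of -0.72 (a fold of 1.65), and 34 had both NICD arrays below both untreated arrays (23.1% of all genes). Hmmr fell by 1.25 ± 0.27 (adjusted p = 0.0103), Birc5 by 1.21 ± 0.32 (0.0316), Nuf2 by 1.12 ± 0.28 (0.0217), Cenpf by 1.09 ± 0.24 (0.0126), Bub1 by 1.06 ± 0.29 (0.0401) and Kif2c, a microtubule depolymerase, by 1.05 ± 0.26 (0.0219). Top2a had log2 levels of 10.84 and 10.47 with NICD, against 11.54 and 11.64 in untreated CD24hi cells, and fell by 0.94 ± 0.27 (adjusted p = 0.0484). Cdc20 had 9.84 and 9.92 against 10.77 and 10.78 and fell by 0.89 ± 0.26 (adjusted p = 0.0469).

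Mki67 had log2 levels of 11.06 and 10.69 in NICD against 11.57 and 11.78 in untreated CD24hi cells, and Cdk1 had 10.13 and 10.31 against 10.87 and 11.01. Both were without overlap, with differences of -0.80 ± 0.31 (adjusted p = 0.127) and -0.72 ± 0.31 (adjusted p = 0.173) that did not pass. Plk1, at 10.68 and 11.33 against 11.23 and 11.34, overlapped and differed by -0.28 ± 0.24 (adjusted p = 0.492). Cdc25c, at -1.57 ± 0.50 (adjusted p = 0.0682), Ndc80, at -1.20 ± 0.50 (0.152), and Ect2, at -1.16 ± 0.35 (0.061), were the largest differences that did not pass. The count past the threshold changed with the array left out. The median log2 difference was -0.743 without NICD replicate 2, the array with the low actin ratio, and -0.707 without NICD replicate 1. It was -0.701 without untreated replicate 1 and -0.786 without untreated replicate 2. None of the 12 changed sign in these fits. All 6 of 6 enteroendocrine and 5 of 5 tuft cell markers rose in these cells, with summed signals of 45130 to 74230 and 9526 to 11540, against 9955 to 10560 and 1166 to 1725 in untreated CD24hi cells. Of 2 stroma and endothelium markers tested 1 rose (4104 to 5040 against 527.4 to 806.1), of 4 B and plasma cell markers 1 rose (5123 to 7115 against 2696 to 3241), and of 6 enterocyte markers 2 rose (20320 to 27900 against 10920 to 15690). Their part in the result was not tested.

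In CD24lo cells with NICD 3 of 37 genes fell and 0 rose, against 7.72% of all genes lower and 6.7% higher, with a median log2 difference of -0.24. That count is close to the share of all genes. Of 29 further probe sets for 20 of the genes, 1 fell in these cells, with a median of -0.06 and 16 of the sign of the main probe set. In CD24hi cells with NICD 6 of the 29 fell, with a median of -0.78. The 3 were Birc5 at -1.13 ± 0.32 (adjusted p = 0.0306), Cdk1 at -0.97 ± 0.31 (0.0479) and Cdca3 at -0.77 ± 0.21 (0.0297). Both NICD arrays lay below both untreated arrays for 20 of 37 genes (29.6% of all genes). Cdk1 had log2 levels of 10.62 and 10.00 with NICD, against 11.23 and 11.33 in untreated CD24lo cells. Mki67 (11.66 and 11.48 against 11.81 and 11.87), Top2a (11.62 and 11.11 against 11.40 and 11.45), Cdc20 (10.81 and 10.42 against 10.95 and 11.42) and Plk1 (11.22 and 11.35 against 11.27 and 11.57) did not pass. None of the 3 that fell passed without NICD replicate 2 or without either untreated array, where 0 genes passed. In the same cells 3 of 6 myeloid markers tested rose, with a summed signal of 12660 to 14600 against 6381 to 7333 in untreated CD24lo cells, and 2 of 6 T cell markers rose, with 1267 to 1283 against 291.2 to 535.1. Of 6 enterocyte markers 3 fell (25830 to 26860 against 42380 to 49640), of 7 goblet cell markers 3 fell (86690 to 93360 against 118400 to 149400), and 1 stem cell marker (28900 to 33440 against 19000 to 21300) and 1 enteroendocrine marker rose (18740 to 18810 against 8527 to 11640). Of 7 pan-epithelial markers 1 fell (51830 to 57290 against 68690 to 77930). Their part was not tested.

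Within the NICD condition CD24hi cells had 19 of 37 genes lower than CD24lo cells and 0 higher, against 10.5% of all genes lower, with a median log2 difference of -0.76 (a fold of 1.69), the opposite of the doxorubicin condition. Both CD24hi arrays lay below both CD24lo arrays for 28 genes (26.8% of all genes). Ect2 led at -2.11 ± 0.35 (adjusted p = 0.000888), then Nuf2 at -1.48 ± 0.28 (0.00182), Cenpf at -1.36 ± 0.24 (0.00136), Hmmr at -1.35 ± 0.27 (0.00272), Bub1 at -1.30 ± 0.29 (0.00585) and Anln, of the contractile ring, at -1.25 ± 0.22 (0.00107). The count was 6 without CD24lo NICD replicate 2 and 7 without CD24hi NICD replicate 2, and Cenpf, Hmmr, Prc1, Ect2, Anln and Nuf2 passed in every such fit. All 5 tuft cell markers (summed signal 9526 to 11540, against 376.8 to 431 in CD24lo cells), all 5 Paneth cell markers tested (76480 to 174800 against 46990 to 48610), 4 of 6 enteroendocrine markers (45130 to 74230 against 18740 to 18810) and 4 of 9 stem cell markers (35180 to 42760 against 28900 to 33440) were higher in CD24hi cells, and 4 of 6 myeloid markers were lower (8524 to 9923 against 12660 to 14600). Their part was not tested.

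The NICD effects in CD24hi and CD24lo cells differed for 2 of 37 genes, against 1.01% of all genes with a lower effect in CD24hi cells, with a median of -0.52. Ect2 had log2 levels of 9.28 and 8.01 with NICD against 10.04 and 9.56 in untreated CD24hi cells, and 10.48 and 11.02 against 9.96 and 9.86 in CD24lo cells. Nuf2 had 8.997 and 8.26 with NICD against 10.08 and 9.42 in untreated CD24hi cells, and 10.24 and 9.96 against 9.46 and 9.55 in CD24lo cells. Both genes were thus lower with NICD in CD24hi and higher in CD24lo arrays, with no overlap, and the effects differed by -2.003 ± 0.50 for Ect2 (adjusted p = 0.0472) and -1.72 ± 0.39 for Nuf2 (adjusted p = 0.0381). With 1 array left out the adjusted p was 0.00256 to 0.26 for Ect2 and 0.00357 to 0.211 for Nuf2. In each fit that left out an untreated array, CD24lo NICD replicate 2 or CD24hi NICD replicate 2, 0 genes passed, and 5 passed without CD24hi NICD replicate 1.

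After ablation of Lgr5-expressing cells limma passed 0 of 37 genes in CD24hi cells (0.852% of all genes, 0 members at an unadjusted p under 0.05) and 0 in CD24lo cells (0.236% of all genes, 3 members at an unadjusted p under 0.05). The median log2 difference was 0.17 in CD24hi cells, with 31 of 37 positive, and -0.27 in CD24lo cells, with 33 negative. Mki67 had log2 levels of 11.75 and 11.74 after ablation against 11.57 and 11.78 in untreated CD24hi cells, and 11.98 and 11.25 against 11.81 and 11.87 in CD24lo cells, with overlap in both. Top2a had 11.59 and 11.58 against 11.54 and 11.64 in CD24hi cells, and 11.68 and 10.97 against 11.40 and 11.45 in CD24lo cells. Both ablated arrays lay above both untreated arrays for 13 genes in CD24hi cells (18.2% of all genes) and below for 0 (18.6%). In CD24lo cells they lay below for 14 (19.3%) and above for 2 (14.6%). Cdc20 was among the 13 (0.198 ± 0.256) and the 14 (-0.423 ± 0.256), and Cdk1 among the 14 (-0.415 ± 0.314). Cdk1 in CD24hi cells and Plk1 in both fractions overlapped. In the ablated CD24lo group replicate 2 was below replicate 1 for 36 of 37 genes. The test of the CD24hi minus the CD24lo effect passed 0 of 37 in limma (0.0169% of all genes), with 6 at an unadjusted p under 0.05 and a median of 0.44. The summed signal of the stem cell markers was 25930 to 29040 after ablation against 42670 to 46550 in untreated CD24hi cells. In CD24lo cells it was 12630 to 19020 against 19000 to 21300. The part of the markers was not tested.

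In untreated mice 1 of 37 genes differed between CD24hi and CD24lo cells. Aurka, the spindle pole kinase, was lower in CD24hi cells, by 0.61 ± 0.20 (adjusted p = 0.0482), and 0 were higher, against 6.87% of all genes lower and 7.51% higher. It had log2 levels of 9.92 and 9.69 in untreated CD24hi cells, against 10.21 and 10.62 in untreated CD24lo cells, and did not pass without CD24lo replicate 2 or either CD24hi array. The median log2 difference was -0.22, and both CD24hi arrays lay below both CD24lo arrays for 21 genes (24.5% of all genes). The summed signal of the stem cell markers was 42670 to 46550 in untreated CD24hi against 19000 to 21300 in untreated CD24lo cells. That of the enterocyte markers was 10920 to 15690 against 42380 to 49640. The part of the markers was not tested. Among ablated mice limma passed 0 of 37 between the fractions (6.98% of all genes, 1 at an unadjusted p under 0.05), and 2 without CD24lo replicate 1.

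After irradiation 9 genes were lower in CD24hi than in CD24lo cells and 0 higher, against 8.23% of all genes lower, with a median log2 difference of -0.57. Stil led at -1.35 ± 0.24 (adjusted p = 0.00113), then Hmmr at -1.22 ± 0.27 (0.00522) and Cenpe, a kinetochore motor, at -1.12 ± 0.26 (0.00765). The count was 1 without CD24lo replicate 1, 1 without CD24hi replicate 1 and 19 without CD24hi replicate 2, and Stil passed in every such fit. Of 9 stem cell markers 7 were higher in irradiated CD24hi cells (summed signal 19450 to 20540, against 7952 to 9576 in irradiated CD24lo cells), as were 4 of 5 tuft cell markers (741.4 to 887.9 against 177.1 to 247.3), and all 6 enterocyte markers tested were lower (13910 to 22770 against 50030 to 56950). Their part was not tested. Averaged over the 5 conditions, 5 genes were lower in CD24hi cells (Cdc25c, Cenpe, Hmmr, Prc1 and Aurka) and 1, Bora, was higher, by 0.32 ± 0.09, against 46.6% of all genes that differed. The median was -0.08, over conditions whose own medians were of opposite sign, 1.03 after doxorubicin and -0.76 with NICD. That count ran from 3 to 13 with 1 array left out, 13 without irradiated CD24hi replicate 2.

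**Figure D5:**
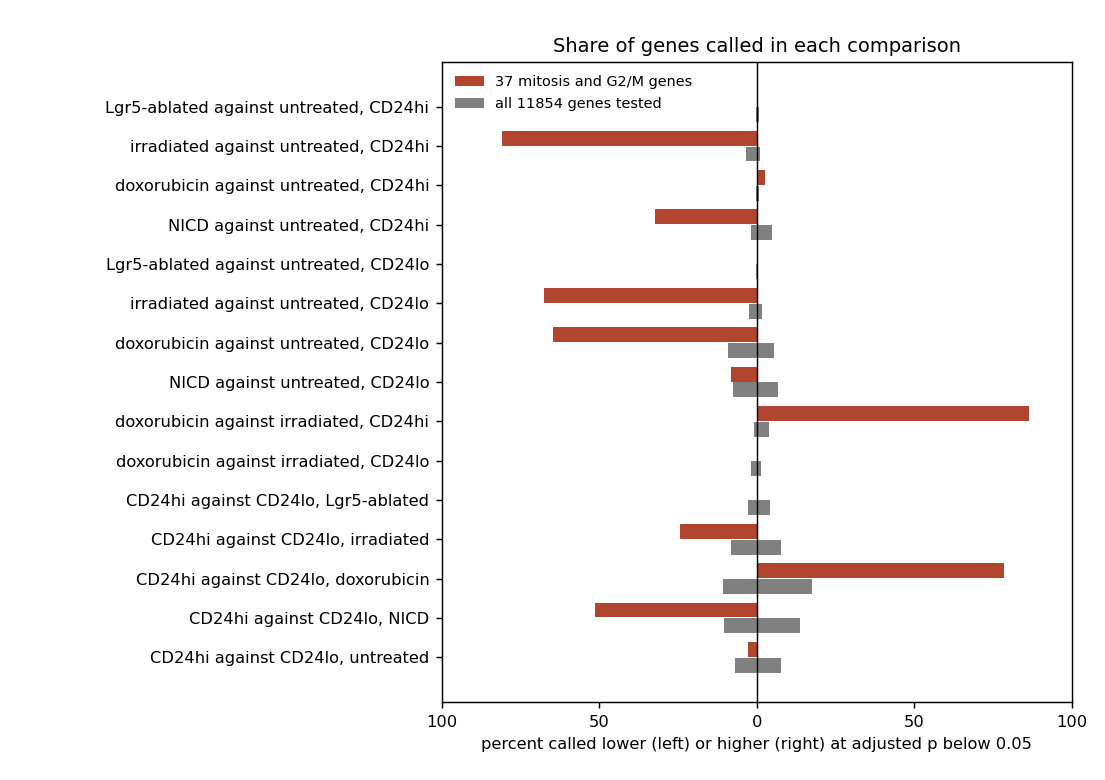
Percent of the 37 mitosis and G2/M genes (red) and of all 11854 genes tested (grey) that were lower (bars to the left) or higher (bars to the right) at an adjusted p below 0.05, in each of 15 comparisons down the page. The longest red bars point left for irradiation in both fractions and for doxorubicin in CD24lo. To the right they are those of CD24hi after doxorubicin set against irradiated CD24hi cells and against CD24lo cells.

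Foxm1, the transcription factor of the G2/M programme, fell in both fractions after irradiation and in CD24lo cells after doxorubicin. Foxm1 had log2 levels of 6.32 and 7.45 in irradiated against 9.63 and 9.37 in untreated CD24hi cells, and 7.33 and 7.03 in irradiated against 9.68 and 10.44 in untreated CD24lo cells. It fell by 2.62 ± 0.39 (adjusted p = 0.000752) and 2.88 ± 0.39 (adjusted p = 0.000603), without overlap. After doxorubicin it had 7.89 and 7.97 in CD24lo cells, a fall of 2.13 ± 0.39 (adjusted p = 0.00313), and 9.52 and 9.53 in CD24hi cells, a difference of 0.03 ± 0.39 (adjusted p = 0.991). With NICD it had 8.37 and 9.47 against 9.63 and 9.37 in untreated CD24hi cells, which overlap, and differed by -0.58 ± 0.39 (adjusted p = 0.381). Foxm1 was higher by 2.64 ± 0.39 in CD24hi cells after doxorubicin than in irradiated CD24hi cells (adjusted p = 0.000634). It passed without any 1 array except for the fall in CD24lo cells after doxorubicin, which had an adjusted p of 0.05 without untreated replicate 2. Mybl2, the gene of B-Myb, fell in CD24lo cells after doxorubicin by 1.63 ± 0.33 (adjusted p = 0.00534, not passing without untreated replicate 2 or doxorubicin replicate 2), and differed by -0.88 ± 0.33 and -0.93 ± 0.33 after irradiation in CD24hi and CD24lo cells (adjusted p = 0.176 and 0.12).

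Of 21 such factors and subunits, 3 fell and 1 rose in irradiated CD24hi cells, 2 fell in irradiated CD24lo cells, and 6 fell in CD24lo cells after doxorubicin. In CD24hi cells after doxorubicin limma passed 0 of them (1.2% of all genes), with 0 at an unadjusted p under 0.05. In irradiated CD24hi cells 3.33% of all genes fell and 1.11% rose, and in irradiated CD24lo cells 2.45% and 1.58%. In CD24lo cells after doxorubicin it was 9.27% and 5.47%. Of 61 further mitosis genes tested of 66 listed, 37 fell and 1 rose in irradiated CD24hi cells, 18 fell and 1 rose in irradiated CD24lo cells, and 27 fell and 1 rose in CD24lo cells after doxorubicin. The gene that rose in each was Psrc1, a spindle protein that is also a known p53 target, and it rose in CD24hi cells after doxorubicin too. Its log2 levels there were 10.51 and 10.31 against 8.26 and 7.44 in untreated CD24hi cells, a rise of 2.56 ± 0.36 (adjusted p = 0.00164). In irradiated cells it rose by 1.92 ± 0.36 in CD24hi (not passing without untreated or irradiated replicate 2) and by 2.48 ± 0.36 in CD24lo cells. In CD24lo cells after doxorubicin it rose by 1.67 ± 0.36, not passing without untreated replicate 1 or either doxorubicin array.

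Of 39 genes of DNA replication and S phase tested of 41 listed, 28 fell in irradiated CD24hi cells (median log2 difference -1.27), 11 in irradiated CD24lo cells (-0.74), and 27 in CD24lo cells after doxorubicin (-1.28). The share of all genes that fell was 3.33%, 2.45% and 9.27%, in the same order. In CD24hi cells after doxorubicin limma passed 0 of the 39 (median -0.27), with 5 at an unadjusted p under 0.05. Mcm2, a subunit of the replicative helicase, fell by 1.77 ± 0.27 in CD24lo cells after doxorubicin (adjusted p = 0.00114) and by 1.42 ± 0.27 in irradiated CD24hi cells (adjusted p = 0.00414, not passing without replicate 1 of either group). Of 19 inhibitors and arrest genes, 4 rose in irradiated CD24hi (1.11% of all genes) and 6 in irradiated CD24lo cells (1.58% of all genes). Cdkn1a, the gene of the Cdk inhibitor p21, rose by 2.09 ± 0.29 in irradiated CD24hi cells (adjusted p = 0.000373) and by 1.43 ± 0.29 in irradiated CD24lo cells (adjusted p = 0.00963, not passing without replicate 1 of either group). After doxorubicin it differed by 1.07 ± 0.29 in CD24hi (adjusted p = 0.0895) and 0.24 ± 0.29 in CD24lo cells (adjusted p = 0.602), and passed in neither. A p above the threshold does not show that Cdkn1a was unchanged, and its link to the mitosis genes was not tested. With NICD it rose in CD24hi cells by 1.64 ± 0.29 (adjusted p = 0.00239, not passing without NICD replicate 2).

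The G1 cyclin gene Ccnd1 fell in CD24lo cells after doxorubicin by 0.95 ± 0.18 (adjusted p = 0.0035, not passing without untreated replicate 2) and differed by -0.01 ± 0.18 in CD24hi cells after doxorubicin, by 0.01 ± 0.18 in irradiated CD24hi cells and by 0.12 ± 0.18 in irradiated CD24lo cells. Ccne1, the cyclin of S phase entry, passed in none of the comparisons with untreated cells, with -1.43 ± 0.41 in irradiated CD24hi cells (adjusted p = 0.0609).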

How the data were processed

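Gene expression was measured on 21 arrays, 20 of sorted cells in 10 groups of 2 and 1 of whole intestine, which entered no test. The deposited values are linear signal intensities, computed by the authors with MAS5, which the submitters' processing notes name and whose version is not given in the sources used here. Their mean, leaving out the lowest and highest 2 percent of probe sets, was 500 on every array. RNA was amplified from 0.8 ng with the GeneChip Pico kit per the labels' protocols. The median signal of the sorted arrays was 101 to 158, and the number of arrays, not a read depth, limits the precision.

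Signals were taken as log2(signal + 16). Of 45101 probe sets, those with a single gene symbol in the platform annotation were used, kept where above the array median in at least 2 of 20 arrays, with the kept probe set of highest mean for each gene. Of the 37 genes, 6 were read through probe set types that can match related transcripts. Tests used limma 3.58.1 under R 4.3.3, fitting the 10 group means with 10 residual degrees of freedom, moderated variances with a trend, two-sided, with the Benjamini-Hochberg adjustment over 11854 genes at 0.05, in 20 comparisons. Comparisons of 2 treatments with untreated cells of a fraction share the untreated arrays.

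The 38 genes, the other lists, the tests and the promoter motifs were chosen with earlier results of these data known. Mki67, Top2a, Cdk1, Plk1 and Cdc20 were to be named whatever their result. All are described for each treatment against untreated cells and for doxorubicin against irradiation in CD24hi cells. In the other comparisons only some or none of them are. Also named are up to 6 genes with the largest change past the threshold and up to 3 of those not past it. From other lists, up to 4 past the threshold are named, with Foxm1, Mybl2, Cdkn1a, Ccnd1, Ccne1 and Mcm2. Any other gene named was chosen after its values were seen. The alternatives tried were pseudocounts of 1 and 64, quantile scaling, each array centred at its 75th percentile, dropping the filter or requiring the 60th percentile in 4 arrays, the mean of a gene's kept probe sets, no variance trend, replicate number as a block, the arrays compared alone, and each array left out in turn. The same settings for genes outside the 38 were added after seeing the data. Where a group kept 1 array, its spread was taken to equal that of the other groups. The fit was tested on simulated data. Whether replicate numbers pair the arrays over all groups was checked from the correlation of their deviations, 45 pairs of groups from -0.41 to 0.39. That check does not single out the CD24hi and CD24lo arrays of a condition. Replicate numbers were not used as pairs.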

Additional observations from a re-analysis of the deposited data

Results flagged for a closer look

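In 3 cases the treatment effect on a gene differed between the fractions by the test of the difference itself. For Stil after doxorubicin the CD24hi minus the CD24lo effect was 2.13 on the log2 scale (adjusted p = 0.0405), higher in CD24hi. For Ect2 and Nuf2 with NICD it was -2.003 (adjusted p = 0.0472) and -1.72 (adjusted p = 0.0381), lower in CD24hi. With 1 array left out, Stil passed only in the fit without untreated CD24hi replicate 2, and Ect2 and Nuf2 only in those without replicate 1 of either NICD group, with limma adjusted p up to 0.267 for Stil, 0.26 for Ect2 and 0.211 for Nuf2.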

How the results depend on the processing

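No count of genes past the threshold reversed in direction, and 177 of 199 counts under settings other than leaving out an array stayed within 1.5 times. For the difference between fractions averaged over conditions, centring on the 75th percentile gave 10 genes in place of 6. For untreated CD24hi against CD24lo (1 gene), that centring gave 2, and quantile normalization, no filter, no variance trend, the replicate block and the arrays compared alone gave 0. The arrays compared alone gave 5 in place of 9 between the irradiated fractions, 2 in place of 1 for doxorubicin in CD24hi, 2 in place of 12 for NICD in CD24hi, 17 in place of 1 for the difference between doxorubicin effects and 0 in place of 2 for that between NICD effects. NICD in CD24hi gave 7 without the variance trend, and NICD in CD24lo 6 in place of 3 with the centring. The difference between doxorubicin effects gave 0 with the centring, no filter or the replicate block and 2 with the mean of probe sets, and that between NICD effects gave 1 with a pseudocount of 1, 1 with the replicate block, and 0 with no filter or no variance trend. Over all 45 pairs of groups, the deviations of same-numbered arrays showed no common direction (11 correlations above 0.1 and 15 below -0.1). The CD24hi and CD24lo arrays of a condition were not checked alone, so a pairing within a condition was not tested. A call lost under the block says nothing of the size of an effect. Leaving out 1 array gave 16 to 30 genes for irradiation in CD24hi, 7 to 18 in CD24lo, 0 for doxorubicin in CD24hi, 7 to 21 in CD24lo, 0 to 12 for NICD in CD24hi, 0 to 3 in CD24lo, and 22 to 32 for doxorubicin against irradiation in CD24hi. Between CD24hi and CD24lo cells it gave 3 to 13 on average, 0 to 1 untreated, 0 to 2 after Lgr5 ablation, 1 to 19 after irradiation, 18 to 20 after doxorubicin and 6 to 17 with NICD. The difference between effects gave 0 to 1 for doxorubicin and 0 to 5 for NICD. Of 356 differences of named members with 1 array left out 104 lost their call, and of 558 under other settings 32 did; for genes outside the members it was 242 of 940 and 62 of 1483. With 2 arrays a group, calls near the threshold rest on single arrays, and dim genes have compressed differences; the causes were not tested.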

Other observations

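Whole intestine, a single array with no test, had all 37 mitosis and G2/M genes below all 4 untreated sorted arrays, with a median log2 level of 7.64 and 32 of 37 above the median of that array. Mki67 had a log2 level of 9.78 there.

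Gtse1, a microtubule-binding regulator of p53 in G2, was the other mitosis gene outside the 38 that rose with Psrc1 in CD24hi cells after doxorubicin, with log2 levels of 9.29 and 9.10 against 7.76 and 8.01 in untreated CD24hi cells, a rise of 1.31 ± 0.29 (limma adjusted p = 0.0331). It did not pass without any 1 of these 4 arrays, with adjusted p of 0.147 to 0.314. Plk2, a polo-like kinase known as a p53 target, rose by 2.15 ± 0.35 in irradiated CD24hi cells, by 2.64 ± 0.35 in irradiated CD24lo cells, by 1.54 ± 0.35 in CD24hi cells after doxorubicin and by 1.49 ± 0.35 in CD24lo cells after doxorubicin (limma adjusted p = 0.00154, 0.00054, 0.0407 and 0.0116). The rise in CD24hi cells after doxorubicin did not pass with any 1 array left out. That in CD24lo cells did not pass without untreated replicate 1 or either doxorubicin array. Plk1, the mitotic member of that family, passed in none of these comparisons.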
